A study of Mus musculus with 80 samples.

Results

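Ionotropic glutamate receptors of the NMDA and delta families were examined through 7 of their genes, Grin1, Grin2a, Grin2b, Grin2c, Grin2d, Grin3a and Grid1, among the 27179 genes of the count table. The rule that chose the members was their gene family, and 7 of 7 were among the 13016 genes whose level, in counts scaled to the library total (CPM), reached 5 in 8 libraries or more. RNA-seq was performed on the hypothalamus, amygdala, hippocampus, neocortex and cerebellum of 8 virgin and 8 primiparous C57BL/6 females (C57BL/6J in the study's methods), and 77 of the 80 labelled libraries had a column of counts; the hippocampus, amygdala and cerebellum had 7 virgin libraries each and the other groups had 8. Primiparous females had been paired with a male at 8 weeks of age for 2 weeks, and the labels put the taking of tissue at 3 weeks after weaning; the virgins were age-matched and never mated. The study's methods place the harvest later after weaning than the labels do. They also state that virgins were housed in groups and that males were met by the breeders alone, so mating, pregnancy, nursing, contact with a male and housing cannot be told apart in this comparison. The same animals gave all regions, with 14 of 16 animals present in all 5, and the whole hypothalamus but only the left side of the other regions was used.

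Library totals ranged from 7959192 to 37871854 counts. Region labels were checked against marker genes: the summed level of 5 cerebellar granule and Purkinje cell genes was 5146 to 5901 CPM in the cerebellum and at most 30.53 CPM in the hypothalamus, while 6 hypothalamic neuropeptide genes summed to 855.7 to 1518 CPM in the hypothalamus. The primiparous hippocampus library of animal 413 stood apart, with 460 CPM of the cerebellar genes against 8.25 to 21.37 CPM in the other primiparous hippocampus libraries. A primiparous neocortex library, from animal 427, stood apart in another way. Across genes, its counts relative to the neocortex mean fell by 0.309 on the log2 scale for each doubling of gene length (all annotated exons). This length trend ranged from -0.07797 to 0.08539 in the other 15 neocortex libraries. Region contrasts and state tests were also run without each of these libraries, and the Grin2a to Grin2b ratio without that of animal 427. Tests of whether a state difference differs between regions, and the shares among Grin2a to Grin2d, were not. In bulk tissue, fewer cells of a type and less RNA per cell cannot be told apart.

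NMDA receptors are glutamate-gated cation channels built from a pair of GluN1 subunits, encoded by Grin1, and a pair of GluN2 or GluN3 subunits, encoded by Grin2a to Grin2d, Grin3a and Grin3b. GluN1 binds the co-agonists glycine or D-serine and GluN2 binds glutamate; the GluN2 subunit sets how long the channel stays open, how strongly magnesium blocks it and which scaffolds it meets. GluN2B and GluN2D are known for the young brain, GluN2A for the mature forebrain and GluN2C for cerebellar granule cells, while GluN3A lowers calcium entry. Delta receptors, among them the product of Grid1, share the fold but act mainly as synaptic organizers that reach presynaptic neurexins through secreted cerebellins.

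The members are distinct genes that can be counted apart. To show a stretch that the whole family shares in part, the 72 coding bases around the end of the third membrane segment, a part of the channel gate, are given for Grin1, Grin2c and Grid1 from GENCODE M21 transcripts (GRCm38, the mm10 build); capitals mark the 21 bases identical in all 7 genes.
Grin1, exon 15, chr2:25297178-25297249, minus strand: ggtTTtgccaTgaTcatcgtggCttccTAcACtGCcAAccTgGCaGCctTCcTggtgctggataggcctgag
Grin2c, exon 9, chr11:115253728-115253799, minus strand: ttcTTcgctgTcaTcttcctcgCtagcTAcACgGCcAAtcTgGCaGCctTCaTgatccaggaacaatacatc
Grid1, exon 12, chr14:35452317-35452388, plus strand: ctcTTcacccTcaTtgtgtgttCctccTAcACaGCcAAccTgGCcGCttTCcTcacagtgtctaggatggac
The sequences shown are of 3 different subfamilies; of their 72 bases, Grin1 shared 61.1% with Grin2c and 59.7% with Grid1, and Grin2c shared 51.4% with Grid1. These shares do not describe genes of 1 subfamily, such as the GluN2 genes, which are closer to each other. Over all annotated transcripts, the longest exact run that any pair shared was 43 bases (Grin2b and Grid1), against reads of 100 bases.

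Levels across the brain regions were compared first, because they answer where each subunit is made in these females on average over both reproductive states. Contrasts between regions averaged both states in 1 edgeR fit of 10 groups, and 62 of 70 contrasts of a member between a pair of regions passed an adjusted p of 0.05. Most genes differ between brain regions, so these counts stand against a high background. Between hypothalamus and amygdala 7 of 7 members were called (71% of all genes), between hypothalamus and hippocampus 7 (73%), between hypothalamus and neocortex 7 (77.7%) and between hypothalamus and cerebellum 6 (81.1%). The amygdala differed from the hippocampus in 5 members (58.7%), from the neocortex in 6 (62.5%) and from the cerebellum in 7 (80.2%). The hippocampus differed from the neocortex in 6 (67%) and from the cerebellum in 5 (78.7%), and the neocortex from the cerebellum in 6 (79.9%).

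**Figure D1:**
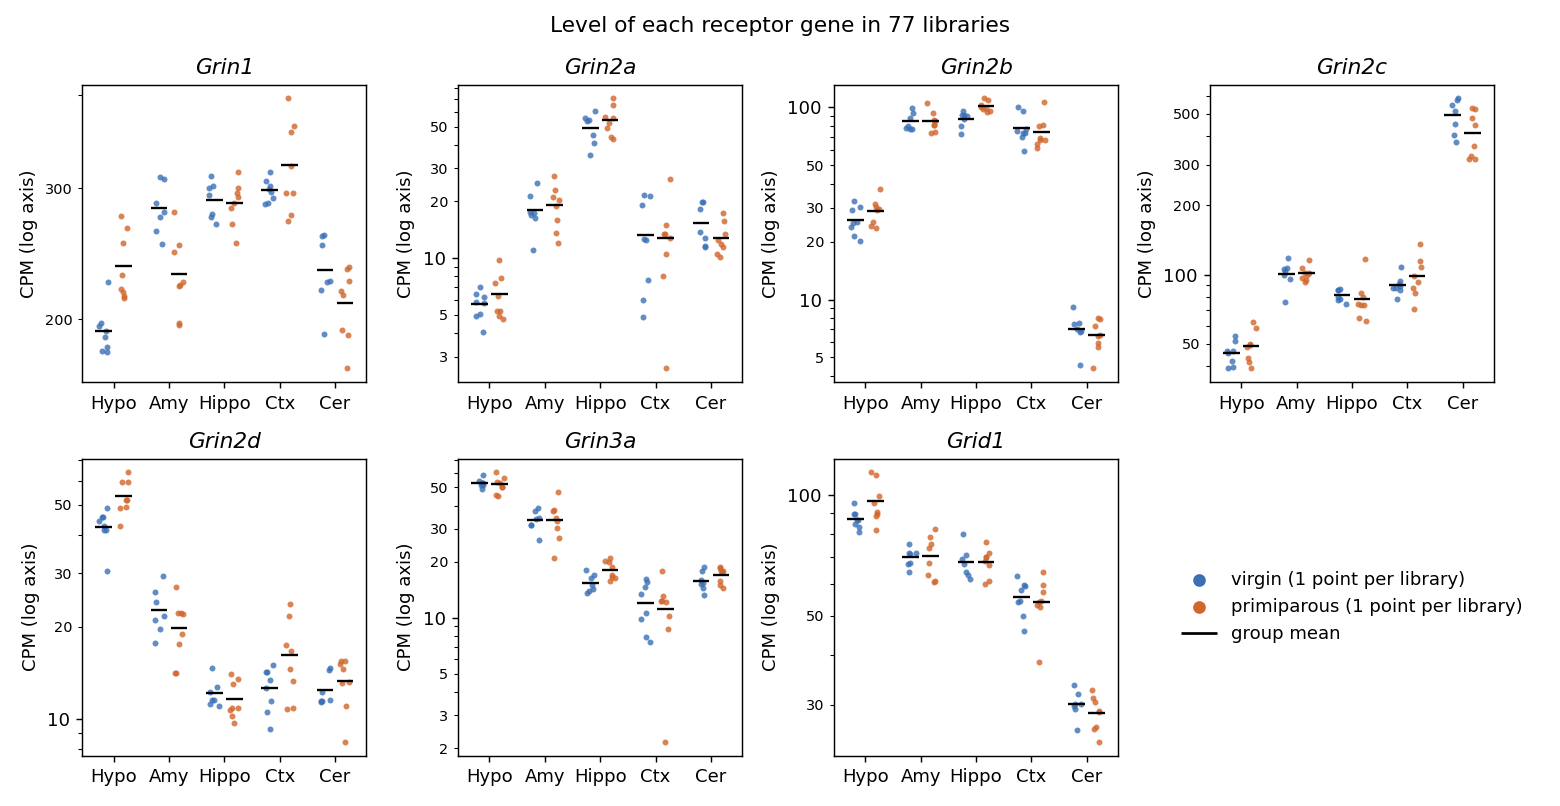
Level of each gene in CPM (log axis) in the 77 libraries, by region and state; each point is a library and each bar a group mean. Grin2c stands highest in the cerebellum (318.7 to 584 CPM), Grin2a in the hippocampus (35.5 to 70.58 CPM) and Grin2d in the hypothalamus (30.4 to 63.97 CPM), while Grin1 spans only 171.8 to 396 CPM over all regions.

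Grin1 (Entrez 14810, chr2:25291181-25319187, minus strand), which encodes the subunit every NMDA receptor needs, was the most even of the 7. Its mean was 310 CPM in the neocortex (SD 34.24, n = 16), 288 in the hippocampus (SD 17.3, n = 15), 254.3 in the amygdala (SD 36.32, n = 15), 220.8 in the cerebellum (SD 25.83, n = 15) and 214.6 in the hypothalamus (SD 29.51, n = 16), so that the highest and the lowest mean CPM differed by 1.44-fold. This order and the tests below average both states, and the lower end of the order depended on state. In virgins the means were 282.2 CPM in the amygdala, 232.8 in the cerebellum and 193.1 in the hypothalamus. In primiparous females they were 230, 210.4 and 236.1 CPM in the same regions. Neocortex and hippocampus did not differ beyond their spread (log2 difference 0.08, SE 0.05, adjusted p = 0.164), nor did cerebellum and hypothalamus (0.06, SE 0.05, adjusted p = 0.294). The steps from hippocampus to amygdala and from amygdala to cerebellum passed the test, at 0.18 and 0.34 on the log2 scale (adjusted p = 0.00124 and 5.5e-09). When the counts were corrected for gene length and GC content, both steps still passed in edgeR, at 0.36 and 0.16 (adjusted p = 3.01e-16 and 7.92e-06). Of the exon bases of Grin1, 1307 of 9700 are also exon of the antisense gene Grin1os; the library kit does not mark strand, so reads there cannot be assigned to one or the other, and Grin1os itself was counted at 4.2 to 11.37 CPM on average across the regions.

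Grin2a (Entrez 14811, chr16:9567898-9995560, minus strand), whose product gives the fast NMDA currents of the adult forebrain, was a hippocampal gene in these data. The lowest, median and highest library were 35.5, 53.73 and 70.58 CPM in the hippocampus, against 11.11, 17.49 and 27.47 in the amygdala, 10.11, 12.77 and 19.95 in the cerebellum, 2.59, 12.65 and 26.46 in the neocortex and 4.07, 5.83 and 9.72 in the hypothalamus. Thus 15 of 15 hippocampal libraries lay above every library of the other regions. The hippocampus exceeded the amygdala by a factor of 2.82 (log2 SE 0.17, adjusted p = 3.97e-12) and the hypothalamus by a factor of 9.44 (adjusted p = 1.03e-26). Cerebellum and neocortex did not differ beyond their spread (log2 difference -0.01, SE 0.17, adjusted p = 0.967).

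Within the neocortex Grin2a varied more than any other member in any region, with a coefficient of variation of 50.8% (45.3% without the library of animal 427). The lowest levels went with the lowest length trends there. The lowest library was the primiparous one from animal 427 at 2.59 CPM, followed by the virgin ones from animals 4487 and 4486 at 4.87 and 6.01 CPM, and these 3 libraries had the 3 lowest length trends (-0.309, -0.07797 and -0.07766). The same 3 libraries were the lowest for Grin3a (2.15, 7.44 and 7.89 CPM) and for Grid1 (38.32, 45.94 and 49.95 CPM), and the highest for Grin2b (106.8, 100.4 and 95.02 CPM). The sum of 4 neocortical genes was 687.7, 851.4 and 739.9 CPM and that of 5 striatal genes 187.7, 147.1 and 149.5 CPM in the libraries of animals 427, 4487 and 4486, against 650.1 to 1002 and 145.3 to 236.5 CPM over all neocortex libraries. All annotated exons came to 17.93 kb for Grin2a, 12.28 kb for Grin3a, 5.962 kb for Grid1 and 24.84 kb for Grin2b. The part of the length trend or of dissection in these levels was not tested.

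Grin2b (Entrez 14812, chr6:135713233-136173511, minus strand), encoding the subunit with slow currents that binds calcium/calmodulin-dependent kinase II, was a forebrain gene low in the cerebellum. Its mean was 94.43 CPM in the hippocampus (SD 10.1), 84.62 in the amygdala (SD 9.26), 76.36 in the neocortex (SD 13.68), 27.43 in the hypothalamus (SD 4.57) and 6.78 in the cerebellum (SD 1.28). The hippocampus stood above the cerebellum (log2 difference 3.91, SE 0.08, adjusted p = 1.49e-55). Neocortex and hypothalamus differed by 1.59 on the log2 scale (SE 0.07, adjusted p = 1.93e-33). Hippocampus and amygdala differed by 0.15 (SE 0.07, adjusted p = 0.0622), which missed the threshold in edgeR but passed with limma-voom (adjusted p = 0.0248) and with no filter on low levels (adjusted p = 0.0143). The small step from amygdala to neocortex passed the test (0.17, SE 0.07, adjusted p = 0.0299), missed it with no filter on low levels (0.14, adjusted p = 0.101) and turned to -0.13 (adjusted p = 0.202) when the counts were corrected for gene length and GC content, and the step from hippocampus to neocortex turned from 0.32 to -0.04 (adjusted p = 0.712).

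Grin2c (Entrez 14813, chr11:115249169-115267243, minus strand), the subunit gene of mature cerebellar granule cells, stood far higher in the cerebellum than anywhere else. The lowest, median and highest cerebellar library were 318.7, 451.7 and 584 CPM, and the highest of all other libraries was 135.4 CPM. Cerebellum exceeded amygdala by 4.07-fold (log2 difference 2.03, SE 0.08, adjusted p = 2.66e-37) and hypothalamus by 9.59-fold (adjusted p = 3.46e-50). Outside the cerebellum the gene was not silent, with means of 101.1 CPM in the amygdala, 94.38 in the neocortex, 79.85 in the hippocampus and 47.34 in the hypothalamus. Amygdala and neocortex did not differ beyond their spread (log2 difference 0.13, SE 0.08, adjusted p = 0.142). Neocortex and hippocampus differed by 0.21 (SE 0.08, adjusted p = 0.013), and with the correction for length and GC content the hippocampus minus neocortex value was -0.06 (adjusted p = 0.278). The hippocampus library with cerebellar marker RNA, animal 413, had 116.8 CPM of Grin2c, the highest of the 15 hippocampal libraries, where the others ranged from 62.97 to 86.92 CPM.

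Grin2d (Entrez 14814, chr7:45831883-45878378, minus strand), encoding a subunit with weak magnesium block and very slow closing, was a hypothalamic gene: 16 of 16 hypothalamic libraries (30.4 to 63.97 CPM) lay above every library of the other regions, whose highest was 29.32 CPM. The mean was 47.97 CPM in the hypothalamus (SD 8.26), 21.2 in the amygdala (SD 4.35), 14.39 in the neocortex (SD 3.96), 12.93 in the cerebellum (SD 2.05) and 11.87 in the hippocampus (SD 1.45). Hypothalamus exceeded amygdala by 1.03 on the log2 scale (SE 0.09, adjusted p = 9.09e-18) and hippocampus by 3.63-fold (adjusted p = 7.89e-32). Cerebellum and hippocampus did not differ beyond their spread (log2 difference -0.02, SE 0.09, adjusted p = 0.87), although with the correction for length and GC content the hippocampus was lower by -0.23 (adjusted p = 0.00264). The step between neocortex and cerebellum passed the test (0.25, SE 0.09, adjusted p = 0.0106) and turned to -0.07 (adjusted p = 0.357) with the correction for length and GC content. Hippocampus minus neocortex was -0.23 in edgeR (SE 0.09, adjusted p = 0.0204), a call that ended with limma-voom (-0.20, adjusted p = 0.0645). Of its exon bases, 643 of 6658 overlap the antisense gene Gm45441.

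Grin3a (Entrez 242443, chr4:49661611-49845744, minus strand), encoding a glycine-binding subunit that dampens NMDA currents, followed the same gradient as Grin2d at its upper end. Its mean was 52.47 CPM in the hypothalamus (SD 4.03), 33.36 in the amygdala (SD 6.19), 16.89 in the hippocampus (SD 2.23), 16.44 in the cerebellum (SD 1.78) and 11.55 in the neocortex (SD 3.9). Hypothalamus exceeded amygdala by 0.51 on the log2 scale (SE 0.11, adjusted p = 2.76e-05) and neocortex by 4.18-fold (adjusted p = 6.64e-28). Hippocampus and cerebellum did not differ beyond their spread (log2 difference 0.17, SE 0.11, adjusted p = 0.161). The hypothalamus was also the region where Grin3a was steadiest, with a coefficient of variation of 7.68%.

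Grid1 (Entrez 14803, chr14:34820108-35583379, plus strand), the delta receptor of forebrain synapses, fell from the hypothalamus to the cerebellum. The mean was 91.84 CPM in the hypothalamus (SD 9.68), 70.16 in the amygdala (SD 6.36), 68.12 in the hippocampus (SD 5.63), 54.93 in the neocortex (SD 6.44) and 29.31 in the cerebellum (SD 2.66). Hypothalamus exceeded cerebellum by 3.12-fold (log2 difference 1.64, SE 0.05, adjusted p = 7.51e-43), and neocortex exceeded cerebellum by 1.01 on the log2 scale (SE 0.05, adjusted p = 1.69e-29). Amygdala and hippocampus did not differ beyond their spread (0.04, SE 0.05, adjusted p = 0.557). Grin3b reached 5 CPM in 0 of 77 libraries and was not tested; its highest library was a cerebellar one at 4.81 CPM.

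Over the 28 steps between neighbouring regions in these orders, 20 passed the test. The orders were set by these same levels. The 58.7% to 81.1% of all genes called between fixed pairs of regions is therefore no background for that count. Leaving out the neocortex library of animal 427 or the hippocampus library of animal 413 ended no call among the region contrasts. The contrast of Grin2b between amygdala and hippocampus, which limma-voom and the fit with no filter call with all libraries, also passed without animal 427 (-0.15, adjusted p = 0.0444).

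Counts of different genes can be compared only per length, so the levels were divided by several lengths. Per kilobase, Grin1 had the highest level of the 7 genes in every region but the cerebellum under each length used; in the cerebellum Grin2c exceeded it per kilobase of all annotated exons (89.67 against 22.77 CPM per kilobase). Among the 4 GluN2 genes on that scale, Grin2c made up 96.7% of the transcript level in the cerebellum (SD 0.602, n = 15) and Grin2a, Grin2b and Grin2d together the rest. In the hypothalamus Grin2c and Grin2d made up 52.1% (SD 3.77) and 39.8% (SD 3.19) and Grin2a 1.88% (SD 0.401, n = 16). Grin2c also had the largest share in the other regions on this scale, with 72.4% in the amygdala, 64.9% in the hippocampus and 75.7% in the neocortex. In the hippocampus Grin2b and Grin2a made up 15.7% and 12.1%. GENCODE gives Grin2a and Grin2b very long untranslated ends (17.93 and 24.84 kb of exon for 4.39 and 4.45 kb of coding sequence), and the annotation with which reads were counted may hold less of them. Per kilobase of coding sequence, the hypothalamic shares were 39.4% for Grin2c, 37.2% for Grin2d, 19.2% for Grin2b and 4.25% for Grin2a. On the same scale, the hippocampal shares were 36.9% for Grin2b (SD 2.89), 20.6% for Grin2a (SD 3.35) and 37.3% for Grin2c (SD 4.58), and the cerebellar share of Grin2c was still 93.7% (SD 0.882). Grin2b stayed above Grin2a in the hypothalamus, amygdala, hippocampus and neocortex under both lengths, whereas the hippocampal shares of Grin2c and Grin2b lay within 1 SD of each other per kilobase of coding sequence.

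**Figure D2:**
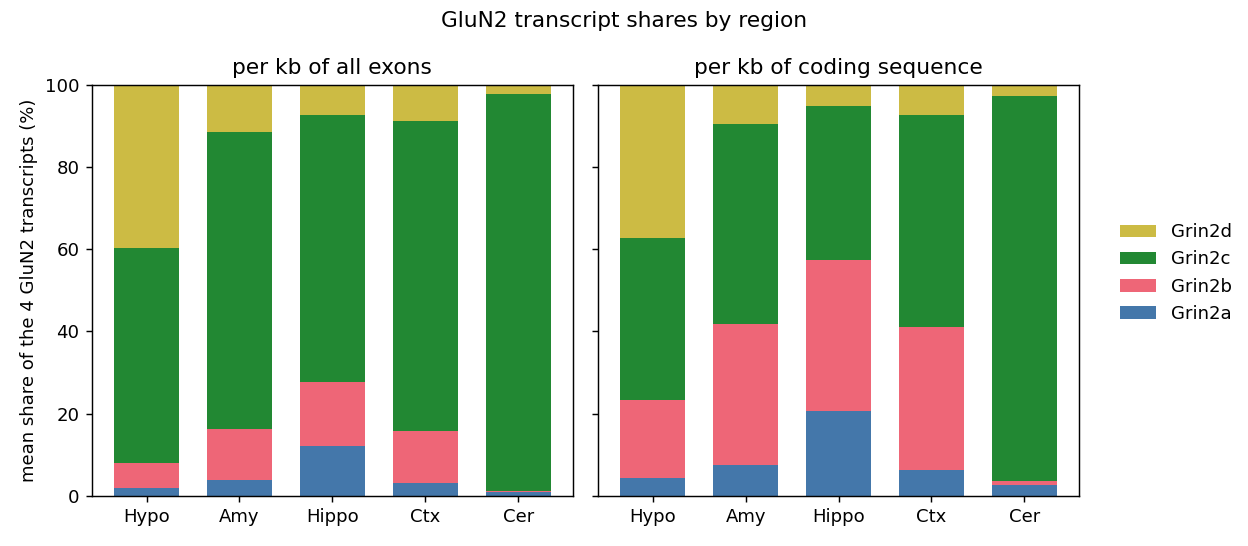
Mean share (%) of each of the 4 GluN2 genes in their summed level per kilobase, by region, over 15 or 16 libraries; the left panel divides counts by all annotated exons and the right panel by coding sequence. Grin2c takes 96.7% or 93.7% in the cerebellum under the respective lengths, and Grin2d takes 39.8% or 37.2% in the hypothalamus.

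A ratio within a library needs no length to be compared between regions. The log2 ratio of Grin2a to Grin2b CPM, which is the GluN2A to GluN2B balance at the RNA level, was 1.04 in the cerebellum (SD 0.342, n = 15), -0.872 in the hippocampus (SD 0.238, n = 15), -2.20 in the hypothalamus (SD 0.209, n = 16), -2.23 in the amygdala (SD 0.291, n = 15) and -2.75 in the neocortex (SD 1.05, n = 16). Compared within animals, the hippocampus was above the hypothalamus in 15 of 15 animals by 1.31 on the log2 scale (exact two-sided sign-flip test, p = 6.1e-05, the smallest that 15 animals allow; adjusted over 10 pairs, p = 0.000122). Cerebellum exceeded hippocampus by 1.91 in 15 of 15 animals at the same p. Hypothalamus and amygdala did not differ beyond their spread (mean difference 0.04, SD 0.36, 15 animals, adjusted permutation p = 0.685), and neocortex was not separated from amygdala (adjusted permutation p = 0.142). Between hypothalamus and neocortex the adjusted permutation p was 0.0644, and with 1 CPM added to both genes the difference of 0.602 passed (adjusted permutation p = 0.0221). The lowest neocortical values were those of the libraries named above: animal 427 had -5.36 and animals 4487 and 4486 had -4.37 and -3.98. Without the library of animal 427 the neocortical mean was -2.57 (SD 0.811, n = 15; adjusted exact permutation p = 0.129 against hypothalamus and 0.284 against amygdala).

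**Figure D3:**
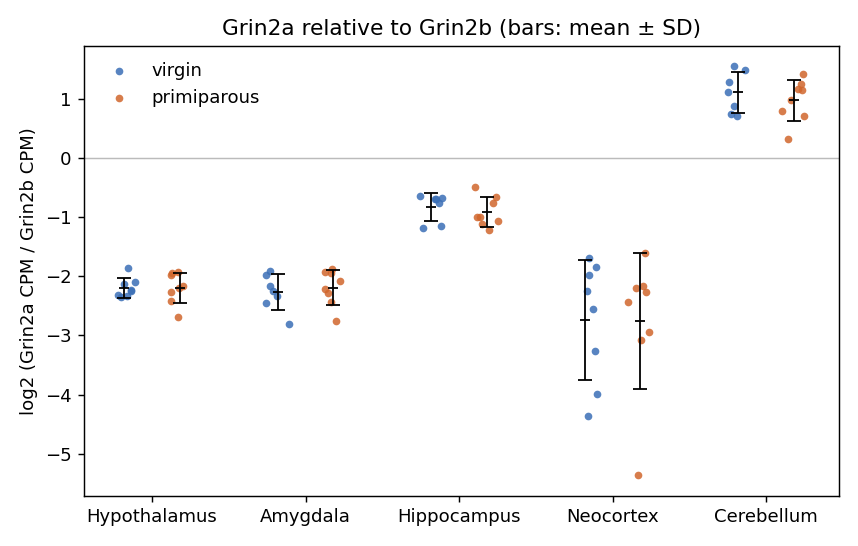
Log2 ratio of Grin2a to Grin2b CPM in each library by region and state, with mean and SD of each group. The ratio is above 0 only in the cerebellum (0.329 to 1.55), and the neocortex spreads from -5.36 to -1.61 while virgin and primiparous groups overlap in every region.

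No difference in the ratio between virgin and primiparous females was detectable in any region. Primiparous minus virgin was 0.00136 in the hypothalamus, 0.08 in the amygdala, -0.09 in the hippocampus, -0.02 in the neocortex and -0.14 in the cerebellum, each smaller than the SD within the groups (0.162 to 1.15), with an adjusted p of 0.991 in each (exact two-sided permutation tests, adjusted over 5 regions). In the neocortex the difference was 0.35 without the library of animal 427 (adjusted p = 0.778, same exact permutation test).

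The main question of the study was which genes keep a difference between virgin and primiparous females after the pups are gone. Among the members, Grin1 and Grin2d were higher in the primiparous hypothalamus, by 1.21-fold and 1.24-fold, and in edgeR's fits per region no member passed in another region; Grin1 in the amygdala passed with DESeq2 and in 1 edgeR fit of all 10 groups. In the hypothalamus 2 of 7 members were called, both higher, against 22.6% of all genes called (1405 higher and 1534 lower). The median log2 difference of the 7 members was 0.13, against 0.01 over all genes tested. The share is near the background, so it is not a result about the family.

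Grin1 in the hypothalamus had a lowest, median and highest value of 180.5, 191 and 224.2 CPM in the 8 virgins and 213.4, 224.7 and 275.4 CPM in the 8 primiparous females. The means were 193.1 (SD 14.13) and 236.1 (SD 24.71), a log2 difference of 0.27 (SE 0.06, adjusted p = 0.00379). All 8 primiparous libraries were above the virgin mean and 4 were above every virgin library; the groups overlapped through 1 virgin, animal 409 at 224.2 CPM.

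Grin2d had a lowest, median and highest value of 30.4, 43.5 and 48.82 CPM in the virgins and 42.82, 51.92 and 63.97 CPM in the primiparous females. The means were 42.52 (SD 5.5) and 53.42 (SD 6.93), a log2 difference of 0.31 (SE 0.08, adjusted p = 0.0126). Of the 8 primiparous libraries 8 were above the virgin mean and 7 were above every virgin library, the exception being animal 415 at 42.82 CPM.

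The other 5 members in the hypothalamus did not pass the test. Grid1 averaged 87.17 and 96.51 CPM in virgin and primiparous females (log2 difference 0.13, SE 0.06, adjusted p = 0.14), and Grin2a 5.67 and 6.43 CPM (0.16, SE 0.16, adjusted p = 0.487). Grin2b was at 25.99 and 28.87 CPM (0.13, SE 0.10, adjusted p = 0.35), Grin2c at 45.57 and 49.11 CPM (0.08, SE 0.09, adjusted p = 0.506) and Grin3a at 53 and 51.94 CPM (-0.06, SE 0.06, adjusted p = 0.532). Hypothalamic groups of these 5 genes overlapped throughout.

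Both calls in the hypothalamus ended under each of 2 corrections. The share of all genes called was 22.6% without them, 3.07% with the correction for length and GC content and 0.023% with the digits of the animal number as a covariate. With the counts corrected for gene length and GC content, Grin1 had a log2 difference of 0.07 (SE 0.04, adjusted p = 0.318) and Grin2d of 0.09 (SE 0.06, adjusted p = 0.467). With the number of digits of the animal number as a covariate, the values were 0.19 (adjusted p = 0.234) and 0.24 (adjusted p = 0.294). In 1 fit of all 10 groups, which called 16.8% of all genes, Grin2d had an adjusted p of 0.0587. Grin1 (59.4% GC over its longest annotated transcript) and Grin2d (65%) are GC-rich. The hypothalamic libraries differed by state in how counts rose with GC content. In log2 units per 10 points of GC, the trend was -0.1866 to 0.09813 in virgins and -0.06443 to 0.2857 in primiparous females. Grin2c (62.1% GC) was not called in either fit, and its log2 difference went from 0.08 to -0.12 with the correction. The part of the GC trend in these differences was not tested beyond the corrected fit. Of the animal numbers, 6 of 8 virgins had 4 digits and 7 of 8 primiparous females had 3. The covariate fit therefore compares states within a length through 2 virgins with 3 digits and 1 primiparous female with 4. What the animal numbers stand for is not given by the labels.

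**Figure D4:**
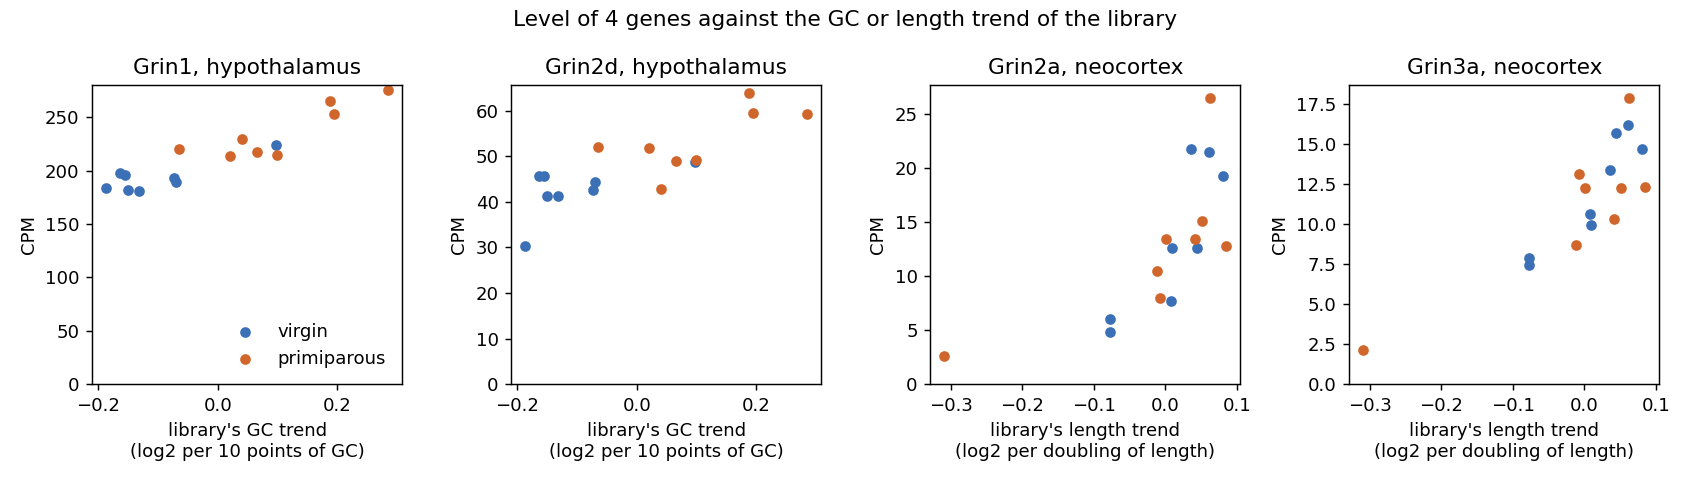
CPM of Grin1 and Grin2d in 16 hypothalamic libraries against the library's GC trend (log2 per 10 points of GC content). CPM of Grin2a and Grin3a in 16 neocortex libraries against the library's length trend (log2 per doubling of gene length, all annotated exons). Colours give the state. Of the 8 primiparous hypothalamic libraries 4 lie to the right of every virgin one, and the neocortex library of animal 427 lies far left at -0.309 with 2.59 and 2.15 CPM.

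Cell type markers were compared by state in the hypothalamus as well, in the edgeR fit that called 22.6% of all genes. The counts of markers called below are to be read against that share. The sum of 7 neuronal genes was 3930 to 4327 CPM in virgins and 3837 to 4217 CPM in primiparous females, with 1 of 7 higher and 2 lower; none of the 7 was at 0. The sum of 5 astrocyte genes was 1480 to 1822 and 1352 to 2193 CPM, and that of 5 oligodendrocyte genes 4800 to 5672 and 4568 to 5701 CPM, with 1 of 5 lower in each list. The sum of the 6 hypothalamic neuropeptide genes was 855.7 to 1139 and 926.4 to 1518 CPM, with 1 of 6 lower. Other lists held genes that were higher: 1 of 4 dentate and hippocampal neuron genes, whose sum was 49.59 to 59.48 CPM in virgins and 57.07 to 68.43 CPM in primiparous females, 1 of 4 endothelial genes (87.7 to 183.7 and 90.75 to 169.5 CPM), 1 of 5 cerebellar genes (17.64 to 28.36 and 16.58 to 30.53 CPM) and 1 of 3 choroid plexus genes tested (34.51 to 48.14 and 34.94 to 61.78 CPM for all 4). Among the genes tested of the microglial, neocortical, striatal, thalamic and pituitary lists 0 passed in edgeR. The part of these cell types in the differences of Grin1 and Grin2d was not tested.

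RefSeq promoters (GRCm38.p6) were held for 3 of the 7 genes, and the 250 bases before the start are given for the 2 genes called in the hypothalamus and for Grin2c, which is GC-rich but was not called; capitals mark GGGCGG, the GC box, on either strand.
Grin1, chr2:25319188-25319437, minus strand: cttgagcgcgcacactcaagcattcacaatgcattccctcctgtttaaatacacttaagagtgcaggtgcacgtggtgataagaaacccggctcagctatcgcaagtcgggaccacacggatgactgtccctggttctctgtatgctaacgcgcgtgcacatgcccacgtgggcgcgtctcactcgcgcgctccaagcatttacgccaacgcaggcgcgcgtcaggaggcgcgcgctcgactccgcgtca
Grin2d, chr7:45866682-45866931, minus strand: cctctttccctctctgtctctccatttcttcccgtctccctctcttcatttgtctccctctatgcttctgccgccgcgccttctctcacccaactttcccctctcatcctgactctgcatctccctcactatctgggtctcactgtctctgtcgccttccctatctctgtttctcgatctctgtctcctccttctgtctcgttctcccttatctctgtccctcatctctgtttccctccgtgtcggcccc
Grin2c, chr11:115267244-115267493, minus strand: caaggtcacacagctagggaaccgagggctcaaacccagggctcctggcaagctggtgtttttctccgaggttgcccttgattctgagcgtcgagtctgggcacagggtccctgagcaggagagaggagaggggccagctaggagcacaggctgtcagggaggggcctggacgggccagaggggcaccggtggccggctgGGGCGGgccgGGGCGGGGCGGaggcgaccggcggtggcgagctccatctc
The Grin1 stretch held 27 CG pairs, that of Grin2d 9 and that of Grin2c 15, against a median of 15 over 13276 promoters of genes that passed the level filter. GGGCGG or its reverse occurred 3 times before Grin2c, with the last 2 copies overlapping by 1 base, and in neither of the other stretches; 57.3% of those 13276 promoters hold it. The RefSeq start of Grin2d lies inside the span that GENCODE gives the gene. No binding was measured here.

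**Figure D5:**
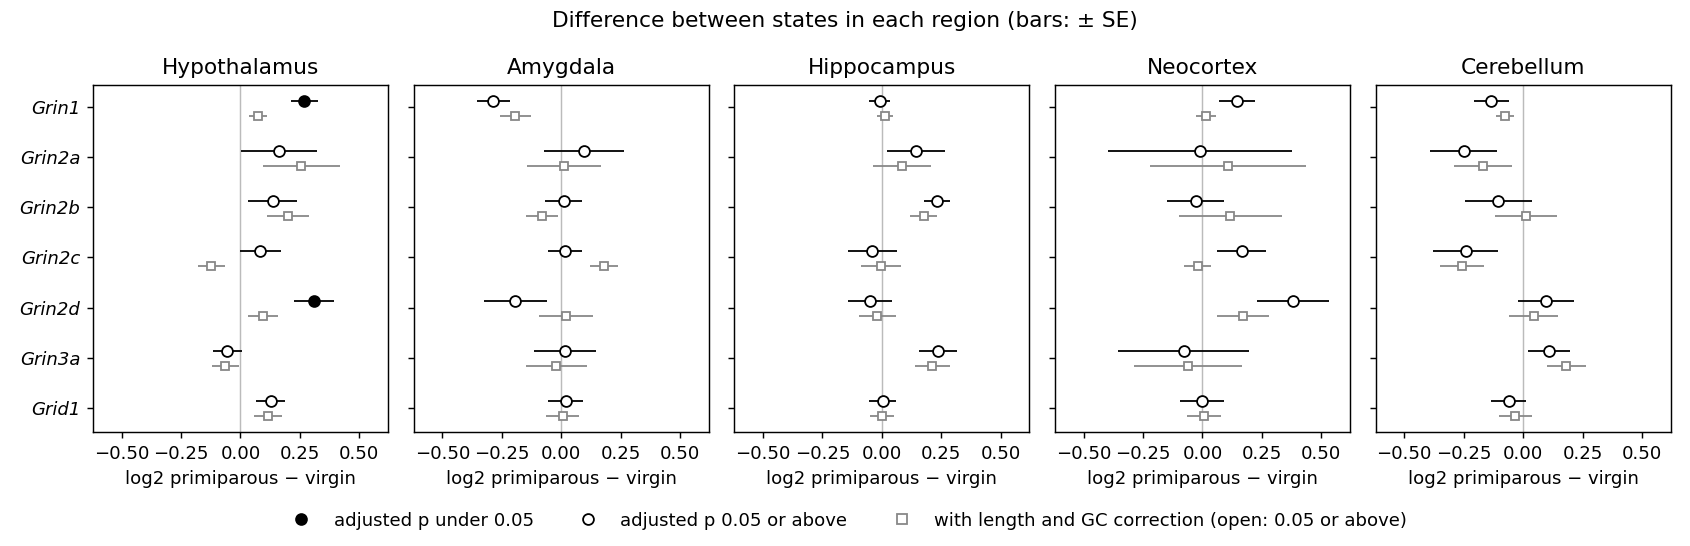
Log2 difference between primiparous and virgin females for each gene and region with its standard error; black circles are the edgeR fits, filled where the adjusted p was under 0.05, and grey squares are the fits corrected for length and GC content. Only Grin1 (0.27) and Grin2d (0.31) in the hypothalamus are filled, and their grey squares lie at 0.07 and 0.09.

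In the amygdala 0 of 7 members were called by edgeR (0% of all genes), with 1 of 7 at an unadjusted p under 0.05 (11.9% of all genes); limma-voom called 0 and DESeq2 called 1 (0.73% of all genes). That gene was Grin1: the lowest, median and highest values were 252.7, 279 and 311 CPM in 7 virgins and 196.4, 223.6 and 278.4 CPM in 8 primiparous females. Of the primiparous libraries 7 lay below every virgin library, and only animal 413, at 278.4 CPM, lay within the virgin range. The log2 difference was -0.28 (SE 0.07, adjusted p = 0.162), and without the library of animal 413 it was -0.33 (adjusted p = 0.0402). The share of all genes called without that library is not given here, so that call has no background to be read against. DESeq2 gave an adjusted p of 0.0174, and 1 edgeR fit of all 10 groups gave 0.0293 (1.09% of all genes called). In the fit corrected for length and GC content the value was -0.19 (adjusted p = 0.465). The GC trend of the amygdala libraries was -0.07833 to 0.1617 in virgins and -0.1132 to 0.06248 in primiparous females. In virgin and primiparous amygdala, neuronal genes summed to 4414 to 6352 and 3931 to 5624 CPM. Striatal genes summed to 231.6 to 443.8 and 166.1 to 326.9 CPM, and astrocyte genes to 1332 to 2440 and 1621 to 2375 CPM. Of these lists 0 genes passed in edgeR. The part of these cell types in the Grin1 difference was not tested.

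In the hippocampus 0 of 7 members were called (0% of all genes), with 2 at an unadjusted p under 0.05 (7.38% of all genes) and 0 called by limma-voom or DESeq2. Grin2b had a lowest, median and highest value of 72.42, 89.58 and 95.09 CPM in virgins and 94.53, 99.5 and 111.1 CPM in primiparous females, so that 7 of 8 primiparous libraries lay above every virgin one (log2 difference 0.23, SE 0.05, edgeR unadjusted p = 0.000313, adjusted p = 0.339). Grin3a averaged 15.46 CPM in virgins (SD 1.65) and 18.13 in primiparous females (SD 1.94), with 8 of 8 primiparous libraries above the virgin mean (0.24, SE 0.08, adjusted p = 0.57). Grin2c averaged 81.18 and 78.68 CPM (-0.04, adjusted p = 0.952), and -0.14 (adjusted p = 0.471) without the library of animal 413. Grin1, Grin2a, Grin2d and Grid1 differed by -0.05 to 0.14 on the log2 scale.

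In the neocortex 0 of 7 members were called (0% of all genes), with 1 at an unadjusted p under 0.05 (9.8% of all genes) and 0 called by limma-voom or DESeq2. Grin2d averaged 12.62 CPM in virgins (SD 2.02) and 16.15 in primiparous females (SD 4.74), a log2 difference of 0.38 (SE 0.15, adjusted p = 0.479). In the fit corrected for length and GC content the value was 0.17 (adjusted p = 0.998). The GC trend of the neocortex libraries was -0.1707 to 0.04839 in virgins and -0.185 to 0.2785 in primiparous females. In the cerebellum 0 of 7 were called, against 0.707% of all genes, with 0 at an unadjusted p under 0.05 (19.5% of all genes) and 0 called by limma-voom or DESeq2. Grin2c, the gene with the highest cerebellar level per kilobase, ranged from 379.3 to 584 CPM in virgins and from 318.7 to 531.4 CPM in primiparous females (-0.24, SE 0.14, adjusted p = 0.343). Grin2a averaged 15.39 and 12.86 CPM there (-0.25, SE 0.14, adjusted p = 0.329).

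Whether the state difference itself differed between the hypothalamus and another region was tested with an interaction term. Against the amygdala 2 of 7 members passed (18.2% of all genes), against the hippocampus 2 (17.2%), against the cerebellum 1 (15.5%) and against the neocortex 0 (0% of all genes; 0 members at an unadjusted p under 0.05, and 0 by limma-voom or DESeq2). Grin1 differed most against the amygdala, where its state differences have opposite signs: the interaction was 0.56 on the log2 scale (SE 0.09, adjusted p = 0.00044). It was 0.39 against the cerebellum (SE 0.10, adjusted p = 0.00752) and 0.27 against the hippocampus (SE 0.08, adjusted p = 0.0179). Grin2d differed against the amygdala (0.51, SE 0.16, adjusted p = 0.0244), and Grin3a against the hippocampus (-0.30, SE 0.10, adjusted p = 0.0322). These 4 tests share the hypothalamic libraries. With the correction for length and GC content, Grin1 against the amygdala was 0.27 (adjusted p = 0.056), and the same 5 interactions had an adjusted p of 0.056 to 0.847, in fits that called 1.58% of all genes against the amygdala, 1.54% against the hippocampus and 5.92% against the cerebellum, while Grin2c passed against the amygdala (-0.30, adjusted p = 0.0445). With the animal as a replicate block, Grin2d also passed against the hippocampus (0.38, adjusted p = 0.0319). Without the block it missed the threshold in edgeR (0.34, adjusted p = 0.0558) and passed with DESeq2 (0.35, adjusted p = 0.0387). With block and correction together, Grin1 against the amygdala was 0.28 (adjusted p = 0.05, just inside the threshold), and the Grin2c call ended (-0.32, adjusted p = 0.0941).

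The genes around the receptors were read from lists by role. In the hypothalamus 16 of the 46 listed genes that were tested passed, 10 higher and 6 lower, against 22.6% of all genes. Among 12 postsynaptic scaffold genes, 4 rose and 2 fell; the largest rise was of Dlg4, encoding PSD-95 (409.5 to 483.7 CPM, log2 difference 0.22, adjusted p = 0.00867), and the largest fall among those that passed was of its relative Dlg2 (269.3 to 238.8 CPM, -0.20, adjusted p = 0.0148). Among 11 kinases, phosphatases and Ras regulators, 3 rose and 1 fell, and the fall was of Ppp3cb, a catalytic subunit of calcineurin, at -0.39 (233.1 to 180.9 CPM, adjusted p = 0.00124). Of 9 trafficking genes and partners 1 rose and 3 fell, from Lin7c (110.1 to 85.23 CPM, -0.39, adjusted p = 0.00282) to Lin7b (19.29 to 23.27 CPM, 0.24, adjusted p = 0.0428), both of which encode adaptors of the NMDA receptor transport complex. Of 6 genes that supply co-agonists only Slc7a10, a transporter of D-serine and glycine, rose (48.45 to 57.16 CPM, 0.22, adjusted p = 0.0138), and of 7 partners of delta receptors only Nrxn2, a presynaptic neurexin (429.6 to 529.2 CPM, 0.28, adjusted p = 0.00468). With the correction for length and GC content 3 of the 46 listed genes were called, against 3.07% of all genes in that fit. These were Ppp3cb (adjusted p = 0.0108), which was lower, Neto1 (0.00407) and Grina (0.0398). Neto1 and Grina had not passed without the correction, with log2 differences of 0.10 and 0.06. Of this pair, 1 was called higher and 1 lower in the corrected fit.

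In the other regions 0 of the 46 listed genes passed in edgeR, while an unadjusted p under 0.05 was seen for 12 in the amygdala (11.9% of all genes), 1 in the hippocampus (7.38%), 9 in the neocortex (9.8%) and 8 in the cerebellum (19.5%). Limma-voom called 0 in each and DESeq2 called 1, in the amygdala (0.73% of all genes). With the correction for length and GC content 3 of the 46, the scaffold genes Shank1, Shank2 and Dlg2, were called in the cerebellum. All 3 were higher in primiparous females, against 3.46% of all genes called in that fit. The median log2 difference of the 5 lists with several genes lay between -0.10 and 0.15 there.

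The genes whose levels ran most like each member over all 77 libraries were found by Pearson's r of log2(CPM + 4), as a description; libraries of a region share their tissue, so the points are not independent. Grin2b ran with Icam5 (r = 0.986) and Chrm1, Grin2c with Boc (0.975), Sbk1 and Gng13, and Grid1 with Pnmal1 (0.977), Scn3a and Col25a1. Grin3a ran with Kcna3 (0.961), Lonrf2 and Prkar2a, Grin2d with Vat1 (0.952), Hmcn2 and Gpx3, and Grin2a with Nr4a3 (0.947) and Adcy9. Grin1, the most even gene, had the weakest match, to Dpp9 (0.887), Actl6b and Bop1. Over the 10 group means the closest gene was again Dpp9, Nr4a3, Icam5, Vat1, Kcna3 and Pnmal1 for the respective members, and Lyn (0.993) for Grin2c. With log2(CPM + 1), 1 of the 3 closest genes of Grin2d and 2 of 3 for Grin2b and Grin3a were the same, and 3 of 3 for the other members. Among the members themselves, Grin2d and Grin3a ran together (r = 0.829), and Grin2c and Grid1 ran in opposite directions (r = -0.915).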

How the data were processed

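RNA-seq libraries came from 5 brain regions of 16 females. Per the labels and the study's methods, the authors made polyA libraries with a kit that does not mark strand, sequenced single-end reads of 100 bases, aligned them to mm10 (HISAT2) and assigned them to genes (featureCounts). The deposited counts are whole numbers per Entrez gene for 77 libraries. A deposited log2 table by the authors, with 4 added to scaled counts, covers 13016 genes and was used for symbols and to check the level filter. For 3 labelled libraries (virgin cerebellum 4490, virgin amygdala 4487, virgin hippocampus 4490) no counts were analysed here; the methods describe outliers that were removed.

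Genes that reached 5 CPM in 8 or more libraries were kept. CPM were computed from the counts. State was tested per region, regions in 1 fit of 10 groups and interactions in fits of 4 groups, with edgeR 4.0.16 (TMM, robust quasi-likelihood, Benjamini-Hochberg adjustment over all 13016 genes, threshold 0.05), in R 4.3.3. Alternatives were limma 3.58.1 (voom), DESeq2 1.42.0, other scaling, no filter, a correction for length and GC content, the digits of the animal number as a covariate, 1 fit of all groups, the animal as a replicate block, and leaving out each library. Pairing comes from the animal numbers in the labels, which are shared across regions; virgin and primiparous females share no animals. The scripts were tested on simulated data. Replicates are separate animals. The members and lists were chosen with earlier results of these data known. Named genes are the members, the 3 genes most like each, and per list the called genes with the largest and smallest change; Neto1, Grina, Shank1, Shank2 and, in the cerebellum, Dlg2 were named after their values were seen. Some genes that this rule names, and some sequences, are not reported here.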

Additional observations from a re-analysis of the deposited data

Results flagged for a closer look

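In 5 of 70 groups of a gene, region and state, 1 library lay far from the rest of its group by Dixon's test, which chance gives in about 1 in 20 groups, or 3.5 of 70. In the hypothalamus these were virgin animal 409 for Grin1 (224.2 CPM, group median 191) and virgin animal 4491 for Grin2d (30.4 CPM, group median 43.5). In the neocortex, primiparous animal 427 stood apart for Grin2b (106.8 CPM, group median 68.15) and for Grid1 (38.32 CPM, group median 54.29). In the hippocampus, primiparous animal 413 stood apart for Grin2c (116.8 CPM, group median 74).

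The state difference itself differed between the hypothalamus and another region in 5 tests by edgeR. Hypothalamus minus amygdala was 0.559 for Grin1 and 0.506 for Grin2d on the log2 scale (18.2% of all genes called). Hypothalamus minus hippocampus was 0.267 for Grin1 and -0.301 for Grin3a (17.2% of all genes). Hypothalamus minus cerebellum was 0.395 for Grin1 (15.5% of all genes). With the correction for length and GC content these 5 had an adjusted p of 0.056 to 0.847 in edgeR. These comparisons share the hypothalamic libraries, and the part of the GC trend in them was not tested beyond the corrected fits.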

How the results depend on the processing

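In the hypothalamus 2 members were called by state; this became 0 with the length and GC correction (3.07% of all genes called, against 22.6%), 0 with the animal number digits as a covariate (0.023%) and 1 in 1 fit of all 10 groups (16.8%). In the amygdala 0 became 1 (Grin1) with DESeq2 and in 1 fit of all groups, and 0 to 1 when leaving out each library (1 without primiparous animal 413). The share of all genes called is not given here for the fits that left out a library, so their calls have no background to be read against. Interaction counts against the amygdala, hippocampus and cerebellum became 1 (Grin2c), 0 and 0 with the length and GC correction. The respective shares of all genes called were 1.58%, 1.54% and 5.92%. The counts changed with the replicate block as well. They were 1 (Grin1), 0 and 0 with the replicate block and that correction, and 2, 3 and 1 with the block alone. The share of all genes called is not given here for the fits with the block, so those counts have no background to be read against. The block alone ended no call of a region contrast. Block and correction together ended that of Grin2c between hippocampus and neocortex (-0.0634, adjusted p = 0.266) and those of the contrasts that reversed (adjusted p = 0.315 to 0.854). Reversed values were those of Grin2b between amygdala and neocortex (-0.13, and -0.0816 with the block), Grin2b between hippocampus and neocortex (-0.0405 and -0.0215) and Grin2d between neocortex and cerebellum (-0.0704 and -0.0759), all with the length and GC correction. The Grin2a to Grin2b ratio by state in the hypothalamus was -0.0131 with 1 CPM added to both genes; leaving out each library gave -0.0383 to 0.0707 in the hypothalamus, -0.0119 to 0.157 in the amygdala, -0.146 to -0.0409 in the hippocampus, -0.201 to -0.0428 in the cerebellum and -0.251 to 0.354 in the neocortex (0.354 without primiparous animal 427). The ratio between hypothalamus and neocortex was 0.602 with 1 CPM added (adjusted permutation p = 0.0221). The cause was not tested. Leaving out animals 427 (chosen after seeing the data) and 413 kept 139 of the region values on their side. Low counts limit Grin2a in the hypothalamus (49 to 190 counts) and Grin2b in the cerebellum (59 to 234 counts). Grid1 in the hypothalamus passed without primiparous animal 418 (0.16, adjusted p = 0.0446).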
